A study of Mus musculus with 18 samples.

Results

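Gastrocnemius, the large calf muscle, was compared between flox/flox mice after 10 days of hindlimb unloading and flox/flox mice kept as controls. The comparison took the 3 libraries titled flox/flox with unloading and the 3 titled flox/flox with control, 6 of the 18 libraries of the series, and covered 17833 genes with enough counts to test out of 54532 in the count table. By the labels both groups were female C57BL/6 mice with the genotype flox, the parent allele of a conditional Zfp697 knockout, and the series treats them as wild-type. Control mice stayed in conventional cages. The age, the suspension method and the Cre driver of the knockout are not given in the sources used here. The other 12 libraries are from Zfp697 muscle knockout (mKO) mice, control or unloaded for 10 days, and from both genotypes after 3 days of reloading. The labels do not tie each library to its own animal, so the spread behind each p-value is that of these samples and may be technical. The libraries are called control 1 to 3 and unloading 1 to 3 below.

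Hindlimb unloading lifts the rear limbs off the ground, so that calf muscles contract without bearing weight, and it is a standard model of disuse atrophy. Muscle mass falls when protein breakdown, through ubiquitin ligases, the proteasome and autophagy, exceeds synthesis, which insulin-like growth factor signalling promotes and myostatin restrains. Mitochondrial content, capillary supply, fibre type and the collagen scaffold around the fibres also follow load and activity. The gastrocnemius of the mouse is mostly fast-twitch, with a minor slow, oxidative portion.

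Polyadenylated RNA was sequenced to total counts of 45185079 to 50131547 reads in genes per library. The tissue was checked against 16 fibre genes, whose summed level was 168666, 182261 and 168967 CPM in control and 158192, 162915 and 172354 CPM in unloading. CPM is counts per 1000000 reads, scaled with TMM normalisation factors, which ran from 0.975 to 0.984 in control and from 0.977 to 1.03 in unloading. The first principal component of the 6 libraries held 31.7% of the variance and placed control at -31.4 to -20.4 and unloading at 20.6 to 32.3. The second component, with 19.8%, set unloading 3 at 40.8 apart from unloading 1 at -23.9 and unloading 2 at -19.4. Zfp697 itself, a zinc finger gene (ENSMUSG00000050064, chr3:98382461-98753812, coordinates on GRCm38) had 1.0, 0.984 and 1.6 CPM in control and 1.58, 1.74 and 1.61 CPM in unloading, and did not pass the test (0.46 ± 0.26 log2, adjusted p = 0.338).

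After unloading, 1024 genes changed, which is 5.74% of those tested. Of these 477 rose (2.67%) and 547 fell (3.07%). Collagen genes fell in 8 of 13 cases, collagen-processing genes in 11 of 23 and fatty acid oxidation genes in 12 of 31, and members of the citric acid cycle and respiratory complexes I to III fell too. Nuclear complex IV and ATP synthase genes had 0 of 13 and 1 of 15 called. Their medians, -0.28 and -0.25 log2, were nonetheless below that of complex I, -0.16. Among genes that respond to glucocorticoids 6 of 26 rose, and smaller numbers of glucose, amino acid and polyamine genes rose. The ubiquitin ligases that define muscle atrophy, Fbxo32 and Trim63, did not pass. A gene was called when its adjusted p in edgeR's quasi-likelihood test was under 0.05, in 1 model of all 18 libraries. In that test 3630 of the 17833 genes had an unadjusted p under 0.05. DESeq2, run as an alternative, called 1561 of the 14175 genes it adjusted. Counts of these 2 kinds given for a list below are to be read beside those shares. Changes are log2 fold changes of unloading against control with their standard error (SE), and the median over all tested genes was -0.0022. The count of called genes was 434 without control 1, 416 without control 2, 364 without unloading 1 and 655 without unloading 3. In bulk RNA, fewer cells of a type and less RNA per cell cannot be told apart.

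**Figure D1:**
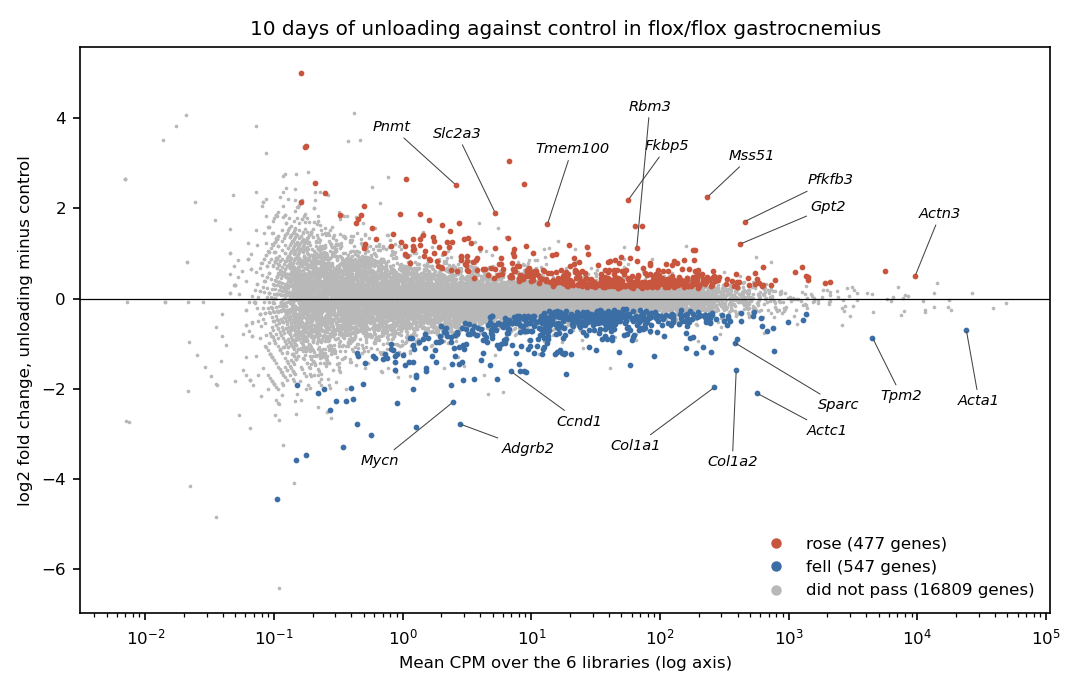
Each point is 1 of the 17833 tested genes, with its mean CPM over the 6 libraries on a log axis and its log2 fold change, unloading minus control, on the vertical axis. Red points rose (477 genes), blue points fell (547 genes) and grey points did not pass; Col1a1, Col1a2 and Actc1 lie low among abundant genes, and Mss51, Pfkfb3 and Gpt2 lie high.

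Of the 50 gene lists examined, fibrillar and type VI collagens had the highest share of fallen genes, 8 of 13, with a list median of -0.80 log2. Col1a1, which encodes the main chain of type I collagen (ENSMUSG00000001506, chr11:94936224-94953042), had 378, 584 and 299 CPM in control and 84.5, 99.1 and 139 CPM in unloading. Every control library lay above every unloading library, and Col1a1 fell by 1.97 ± 0.31 (adjusted p = 0.00149), a 3.91-fold lower level. Its partner chain Col1a2 went from 493, 758 and 508 CPM to 175, 169.9 and 240.0 CPM and fell by 1.59 ± 0.24 (adjusted p = 0.00101). The ranges of the groups did not overlap for 10 of the 13 genes, all lower in unloading, where 12.8% of all tested genes were apart in that direction and 13% in the other. Col3a1, the collagen of reticular fibres, fell from 446, 317 and 277 CPM to 121, 162 and 176 CPM (log2 -1.18 ± 0.25, adjusted p = 0.0115). Among type VI chains, which link the basement membrane to the interstitium, Col6a2 fell by 1.27 ± 0.18 (adjusted p = 0.000796) and Col6a1 by 0.82 ± 0.14 (adjusted p = 0.00208). Col11a1 fell by 1.20 ± 0.21 (adjusted p = 0.00273), Col5a1 by 0.80 and Col6a3 by 0.72, while Col14a1 at -0.08 and Col6a6 at 0.08 did not pass. Col3a1 did not pass without control 1 or unloading 1 (adjusted p 0.0662 to 0.0688), and the list count was 7 or 8 in every fit that left out 1 library.

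The enzymes and chaperones that build collagen were lower as well, with 11 of 23 genes fallen (median -0.45 log2). Serpinh1, the collagen chaperone Hsp47, had 80.8, 92.2 and 66 CPM in control and 42.3, 49.0 and 40.8 CPM in unloading and fell by 0.86 ± 0.15 (adjusted p = 0.00273). Fkbp10, a prolyl isomerase of the endoplasmic reticulum, fell from 8.31, 9.32 and 7.43 CPM to 5.15, 5.0 and 4.54 CPM (log2 -0.77 ± 0.12, adjusted p = 0.00125). P3h3, a member of the prolyl 3-hydroxylase family, fell from 11, 9.45 and 10.1 CPM to 7.0, 5.83 and 5.37 CPM (log2 -0.74 ± 0.11, adjusted p = 0.000796). None of these 3 genes had a control library within the unloading range. Loxl2, a crosslinking lysyl oxidase, fell by 0.97 ± 0.21 (adjusted p = 0.0111) but did not pass without control 1 or unloading 1 (adjusted p 0.066 to 0.0701). Lox, the founding member of that family, stood at 0.17 and did not pass. The number fallen was 6 without control 1, control 2 or unloading 1.

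Basement membrane genes, whose products sheathe fibres and capillaries, fell in 5 of 16 cases with a median of -0.32 log2. Col18a1 was tight within groups, at 19.9, 20.4 and 18.9 CPM in control and 11.8, 12.1 and 10.7 CPM in unloading, and fell by 0.78 ± 0.10 (adjusted p = 0.000446). Col15a1 went from 77.0, 64.4 and 56.5 CPM to 29.3, 33.4 and 24.8 CPM and fell by 1.18 ± 0.19 (adjusted p = 0.0019). The type IV chain Col4a1 fell from 302, 197 and 164 CPM to 119, 120.2 and 123 CPM (log2 -0.87 ± 0.19, adjusted p = 0.0121), and control 1 stood above the other 2 control libraries. Laminin chains did not pass, with Lama2 at 0.04, Lamb1 at -0.26 and Lamc1 at -0.21. Col4a1 did not pass without control 1 or unloading 1 (adjusted p 0.0555 to 0.0762), and Hspg2, the perlecan gene, which fell by 0.44 ± 0.11, did not pass when any library other than control 3 or unloading 2 was left out (adjusted p 0.0676 to 0.109). The count of fallen basement membrane genes was 2 without control 1 and 3 without control 2, unloading 1 or unloading 3.

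Of 29 matricellular and proteoglycan genes 5 fell, with a median of -0.32 log2. Sparc, a collagen-binding glycoprotein, had 533, 563 and 413 CPM in control and 253, 237 and 278 CPM in unloading. It fell by 0.97 ± 0.14 (adjusted p = 0.000811), with the groups apart. Efemp2, or fibulin 4, an elastic fibre protein, fell from 7.33, 7.19 and 5.36 CPM to 3.99, 4.36 and 3.86 CPM (log2 -0.70 ± 0.15, adjusted p = 0.00953). Mfap4, a microfibril-associated glycoprotein, fell from 11.4, 15.1 and 11.6 CPM to 5.97, 6.64 and 7.48 CPM (log2 -0.93 ± 0.20, adjusted p = 0.0121). The fibronectin gene Fn1 fell by 0.76 ± 0.21 but did not pass when any library other than unloading 3 was left out (adjusted p 0.0704 to 0.185). The proteoglycan genes did not pass, with Dcn (decorin) at 0.11, Bgn (biglycan) at -0.36 and Lum (lumican) at -0.49. The count was 2 without control 2 or unloading 1 and 3 without control 3 or unloading 2. Among 17 matrix proteases and their inhibitors Htra1, a secreted serine protease, fell from 31.2, 29.6 and 26.9 CPM to 17.7, 19.8 and 18.9 CPM (log2 -0.64 ± 0.11, adjusted p = 0.00223), and the inhibitors Timp2 at -0.19 and Timp3 at -0.02 did not pass.

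Markers of the cells that make matrix were measured beside these genes. Of 15 fibro-adipogenic progenitor markers 3 fell, with a list median of -0.33 log2. Cd248, or endosialin, a stromal surface protein, fell from 25.4, 27.4 and 19.4 CPM to 9.39, 11.3 and 10.8 CPM (log2 -1.20 ± 0.17, adjusted p = 0.000811). Cd34 fell from 91.9, 93.1 and 95.4 CPM to 74.3, 68.4 and 66.8 CPM (log2 -0.42 ± 0.07, adjusted p = 0.00315), and Dpt, or dermatopontin, fell by 0.47 ± 0.10 but did not pass without control 2 (adjusted p = 0.0552). Pdgfra, the receptor that defines these cells, was at -0.08 and did not pass. The summed level of the 15 markers was 2397, 2786 and 2769 CPM in control and 2983, 2467 and 2309 CPM in unloading, ranges that overlap. Tendon and myotendinous markers had a median of -0.81, and 3 of 12 fell. Tnmd, or tenomodulin, fell from 13.4, 20.6 and 18.7 CPM to 12.1, 6.18 and 10.2 CPM (log2 -0.88 ± 0.19, adjusted p = 0.0127), and did not pass without control 2 (adjusted p = 0.07). Tendon genes also varied within the controls: Chad, or chondroadherin, was at 33.5, 64.9 and 33.6 CPM there against 19.2, 18.9 and 21.5 CPM in unloading, and fell by 1.15 ± 0.32 but did not pass when any library other than control 3 was left out (adjusted p 0.0555 to 0.237). The summed tendon markers were 611, 1061 and 769 CPM in control and 508, 455 and 554 CPM in unloading, highest in control 2. The count of fallen tendon markers was 0 without control 2 and 1 without unloading 2. The part of tendon or stromal RNA in the fall of the collagen genes was not tested.

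**Figure D2:**
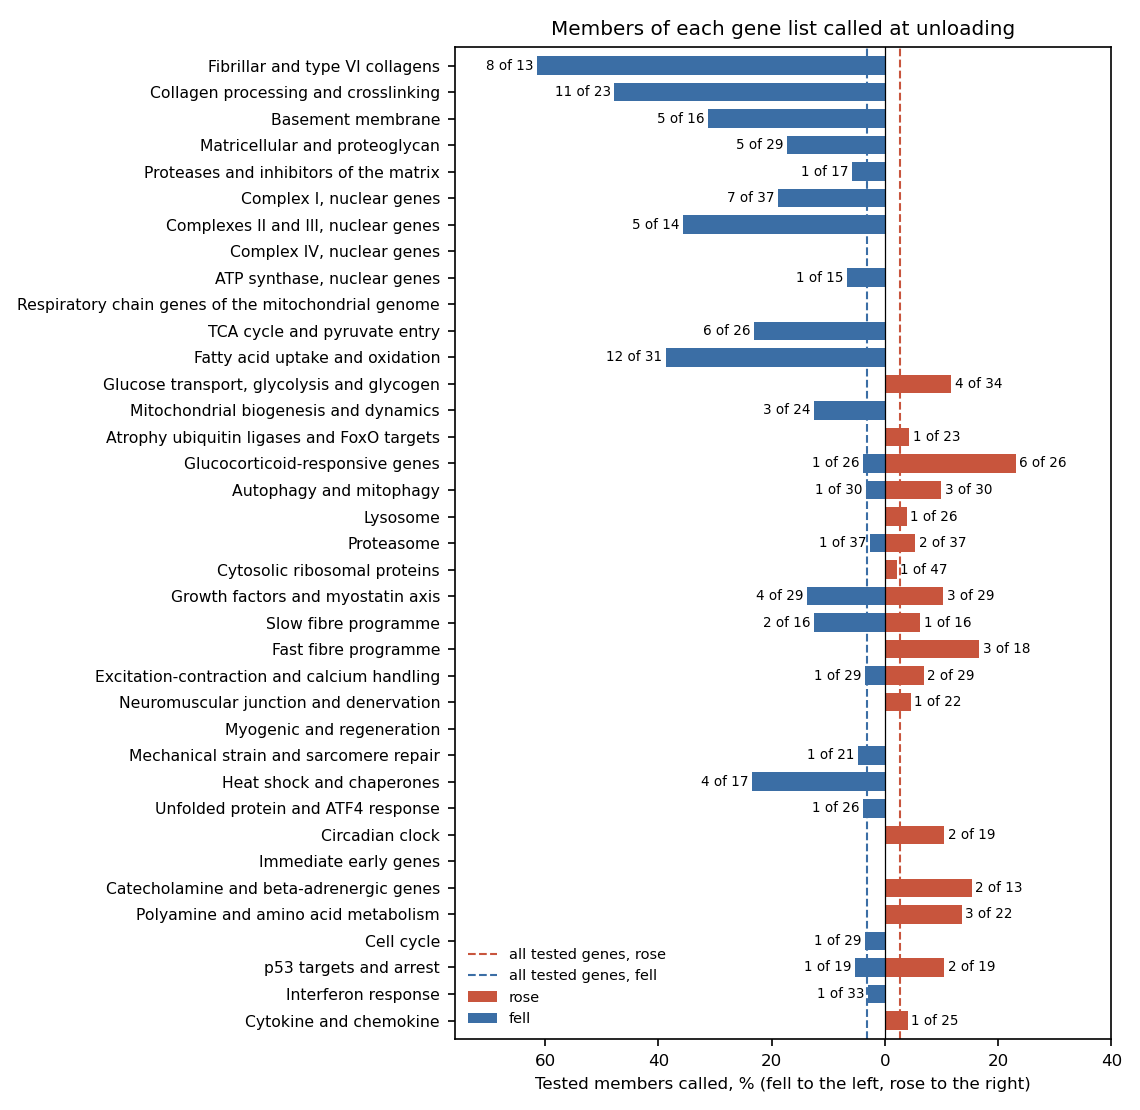
Each bar gives the percentage of a list's tested members that rose (red, to the right) or fell (blue, to the left), with the count beside it, and dashed lines mark 2.67% and 3.07% of all tested genes. Fibrillar and type VI collagens (8 of 13), collagen processing (11 of 23) and fatty acid oxidation (12 of 31) reach farthest on the left, and glucocorticoid-responsive genes (6 of 26) on the right.

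Fatty acid uptake and oxidation was the list with the most fallen genes, 12 of 31 (median -0.41 log2). Acads, the short-chain acyl-CoA dehydrogenase, had 85.4, 90.1 and 81.4 CPM in control and 47.4, 58.5 and 52.3 CPM in unloading and fell by 0.70 ± 0.11 (adjusted p = 0.00129). Hadh, which catalyses the third step of beta-oxidation on shorter chains, fell from 183, 185 and 184 CPM to 125, 145 and 121 CPM (log2 -0.50 ± 0.10, adjusted p = 0.0087). For both genes the control values lay within a narrow band above every unloading library. The trifunctional protein subunits Hadha and Hadhb fell by 0.50 ± 0.11 and 0.55 ± 0.12. Fabp3, the cytosolic fatty acid carrier of muscle, fell from 371, 289 and 216 CPM to 121, 167 and 127 CPM (log2 -1.08 ± 0.22, adjusted p = 0.00956). Acot2, a mitochondrial acyl-CoA thioesterase, fell by 1.23 ± 0.31 with a wide spread in control (26.9, 14.3 and 9.61 CPM, against 9.80, 7.42 and 4.41 CPM). Lpl, the lipase that frees fatty acids from lipoproteins, fell by 0.66 ± 0.18. The entry points Cd36 at -0.04 and Cpt1b at -0.33 did not pass. The count was 3 without control 1 or unloading 1, 5 without control 2 and 6 without unloading 3. Fabp3 did not pass without control 1 or unloading 1 (adjusted p 0.0561 to 0.0574), Acot2 without control 1, unloading 2 or unloading 3 (adjusted p 0.0577 to 0.164), and Hadhb without unloading 1 (adjusted p = 0.0689). Hadha did not pass when any library other than control 3 or unloading 2 was left out (adjusted p 0.053 to 0.0713), and Lpl when any library other than unloading 2 was left out (adjusted p 0.0621 to 0.158).

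Of 26 genes of the citric acid cycle and pyruvate entry 6 fell (median -0.26 log2). Fh1, fumarate hydratase, was even in control at 226, 228 and 228 CPM and lower in each unloading library at 164, 179 and 183 CPM (log2 -0.37 ± 0.08, adjusted p = 0.00956). Idh2, the NADP-dependent isocitrate dehydrogenase of mitochondria, fell from 314, 401 and 329 CPM to 162, 243 and 167 CPM (log2 -0.87 ± 0.21, adjusted p = 0.0187). The groups were apart for 18 of the 26 genes, each lower in unloading, where 12.8% of all tested genes were apart in that direction. Fh1 did not pass without unloading 1 (adjusted p = 0.0593), and Idh2 without control 2, unloading 1 or unloading 3 (adjusted p 0.0744 to 0.0983). The count of fallen cycle genes was 0 without unloading 1, 1 without control 2 and 3 without control 1.

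In the respiratory chain, 7 of 37 nuclear genes of complex I fell (median -0.16 log2) and 5 of 14 of complexes II and III (median -0.30). Sdhb, the iron-sulfur subunit of succinate dehydrogenase, had 408, 407 and 376 CPM in control and 241, 287 and 267 CPM in unloading, and fell by 0.58 ± 0.10 (adjusted p = 0.00194). Ndufa10, Ndufc1 and Ndufb2, accessory subunits of complex I, fell by 0.45 ± 0.09, 0.45 ± 0.09 and 0.45 ± 0.10. Of the 15 ATP synthase genes Atp5g3, a c-ring subunit, fell from 514, 508 and 466 CPM to 329, 378 and 350.5 CPM (log2 -0.49 ± 0.09, adjusted p = 0.00386). It was the 1 called by edgeR, where 9 had an unadjusted p under 0.05, against 3630 of all 17833 tested genes. DESeq2 called 4, against 1561 of the 14175 genes it adjusted. Of these 15 fold changes 14 were below 0, with a median of -0.25 log2. No nuclear complex IV gene passed edgeR's test among 13 (median -0.28), where 4 had an unadjusted p under 0.05 and DESeq2 called 1. All 13 of these fold changes were below 0. The ranges were apart for 7, each lower in unloading, where 12.8% of all tested genes were apart in that direction. None of the 13 respiratory genes of the mitochondrial genome passed in edgeR or DESeq2, where 4 had an unadjusted p under 0.05 in edgeR, and mt-Co1 had 43288, 38359.6 and 43091 CPM against 34006, 34437 and 39216 CPM. The median of these 13 genes was -0.24 log2, with 10 below 0 and 3 above. Mitochondrial transcripts made up 10.31% to 11.9% of counts in control and 9.46% to 10.25% in unloading, ranges that did not overlap. The complex I count was 3 without control 1, control 2 or unloading 1 and 4 without control 3, and that of complexes II and III was 1 without control 1, control 2 or unloading 1 and 3 without unloading 2 or unloading 3. Among regulators of mitochondrial biogenesis 3 of 24 fell. Tfb1m, a methyltransferase of the mitochondrial ribosome, fell from 8.73, 7.96 and 7.85 CPM to 4.22, 5.46 and 5.82 CPM (log2 -0.66 ± 0.12, adjusted p = 0.00315). Ppargc1a, the best known coactivator of this programme, had 40.4, 40.7 and 48.8 CPM in control and 38.7, 37.7 and 45.7 CPM in unloading and did not pass (-0.09, adjusted p = 0.726), whereas its relative Ppargc1b fell by 0.56 ± 0.12 and did not pass without control 1 or unloading 3 (adjusted p 0.053 to 0.0704).

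Among glucose genes 4 of 34 rose (median 0.09 log2). Slc2a3, which encodes the high-affinity glucose transporter GLUT3 (ENSMUSG00000003153, chr6:122727809-122801640), rose from 2.02, 2.16 and 2.41 CPM to 6.83, 10.1 and 7.78 CPM. The groups were far apart and the change, 1.91 ± 0.17 (adjusted p = 1.75e-05), shared the smallest adjusted p of the comparison. Slc2a4, the insulin-regulated transporter GLUT4 of muscle, had 567, 609 and 563 CPM and 559, 629 and 617 CPM and did not pass (0.05). Levels per kilobase of exon set these apart, since Slc2a4 stood at 173 CPM per kilobase in unloading and Slc2a3 at 1.14. Pfkfb3, the enzyme that makes the sugar bisphosphate that activates glycolysis, rose from 308, 155 and 176 CPM to 665, 960.1 and 462 CPM (log2 1.71 ± 0.39, adjusted p = 0.016). Phka1, a phosphorylase kinase subunit that promotes glycogen breakdown, rose by 0.51 ± 0.12 (adjusted p = 0.017). Glycolytic enzymes such as Gapdh at 0.10, Aldoa at 0.11 and Pkm at 0.11 did not pass. Pfkfb3 did not pass without control 2, control 3 or unloading 2 (adjusted p 0.0609 to 0.0845), nor Phka1 without control 1, control 2 or unloading 3 (adjusted p 0.0639 to 0.097), and the count of risen genes was 2 without control 2.

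Of 23 ubiquitin ligases and FoxO targets 1 rose, and 8 were apart upward, where 13% of all tested genes were. An unadjusted p under 0.05 in edgeR was found for 7, against 3630 of all 17833 tested genes. DESeq2 called 2, against 1561 of the 14175 genes it adjusted. The list median was 0.12 log2. Fbxo32, or atrogin-1, had 308, 361 and 410.1 CPM in control and 215, 311 and 178 CPM in unloading, which overlap, and did not pass (-0.62 ± 0.23, adjusted p = 0.136). Trim63, or MuRF1, had 211, 203 and 213 CPM and 228, 224 and 231 CPM. Each unloading library was above each control library for Trim63, but the change of 0.12 ± 0.08 did not pass (adjusted p = 0.414). Cdkn1a, the p21 inhibitor of cyclin-dependent kinases, rose from 20.3, 14.1 and 10.2 CPM to 31.0, 25.0 and 27.3 CPM (log2 0.90 ± 0.24, adjusted p = 0.0352) and did not pass when any library other than control 1 was left out (adjusted p 0.0511 to 0.137). Of 37 proteasome genes 2 rose and 1 fell (median 0.02 log2). Psme1, a subunit of the 11S activator, fell from 30.2, 35.5 and 32.1 CPM to 21.2, 24.7 and 22.5 CPM (log2 -0.52 ± 0.10, adjusted p = 0.00651). The risen pair, Psmd8 at 0.45 ± 0.12 and Psmd13 at 0.24 ± 0.06, passed in none of the 6 fits that each left out 1 library (adjusted p up to 0.157 and 0.135).

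Autophagy was represented by 3 risen genes and 1 fallen gene of 30. Map1lc3a, an LC3 protein of the autophagosome membrane, had 97.1, 109 and 92.5 CPM in control and 170.5, 183 and 165 CPM in unloading. Its groups were apart and it rose by 0.79 ± 0.09 (adjusted p = 0.000246). Optn, or optineurin, a receptor for ubiquitylated mitochondria, rose from 57.7, 55.8 and 53 CPM to 83.1, 77.3 and 77.0 CPM (log2 0.51 ± 0.11, adjusted p = 0.0128), and did not pass without unloading 1 (adjusted p = 0.0628). Bnip3, a hypoxia-inducible mitophagy receptor, rose by 0.34 ± 0.09 but did not pass when any library other than unloading 3 was left out (adjusted p 0.0586 to 0.145). The count of risen genes was 1 without unloading 1. Fundc1, another mitophagy receptor, fell by 0.33 ± 0.09 and did not pass when any library other than control 2 was left out (adjusted p 0.0623 to 0.138). Of 26 lysosomal genes Npc1, the lysosomal cholesterol transporter, rose from 44.4, 37.3 and 38.1 CPM to 63.2, 60.7 and 58.2 CPM (log2 0.60 ± 0.10, adjusted p = 0.00213).

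On the synthetic side, Igf1r, the receptor of insulin-like growth factor 1, rose from 25.3, 30.2 and 29.1 CPM to 44.0, 37.4 and 43.0 CPM (log2 0.56 ± 0.11, adjusted p = 0.00727). Its ligand Igf1 had 35.7, 33.8 and 30.8 CPM and 35.6, 38.8 and 28.5 CPM and did not pass (0.04). Mstn, or myostatin, was at 70.4, 79.4 and 62.5 CPM in control and 79.8, 89.5 and 88.0 CPM in unloading; all 3 unloading libraries were above all control libraries, yet it did not pass (0.28 ± 0.13, adjusted p = 0.229). Fstl1, a secreted follistatin-like glycoprotein, fell from 122, 119 and 110.4 CPM to 68.2, 68.2 and 75.2 CPM (log2 -0.73 ± 0.13, adjusted p = 0.00341). Igfbp3 and Igfbp7, which encode binding proteins of these ligands, moved apart: Igfbp3 rose by 0.48 ± 0.13 (adjusted p = 0.0424) and Igfbp7 fell by 0.44 ± 0.12 (adjusted p = 0.0427). Igfbp3 did not pass when any library other than control 1 was left out (adjusted p 0.0929 to 0.156), nor Igfbp7 when any library other than unloading 1 was left out (adjusted p 0.0615 to 0.199). Of 29 growth factor and myostatin axis genes 3 rose and 4 fell. The count risen was 1 without control 2, control 3, unloading 1 or unloading 3. The count fallen was 1 without control 2 or unloading 3 and 2 without control 1, control 3, unloading 1 or unloading 2. Cytosolic ribosomal protein genes stood a little higher in unloading, with 24 of 47 apart upward against 13% of all tested genes. Rpl4 was the single gene called by edgeR, at 0.30 ± 0.07 (adjusted p = 0.0235). Of the 47, 13 had an unadjusted p under 0.05 in edgeR, against 3630 of all 17833 tested genes. DESeq2 called 6, against 1561 of the 14175 genes it adjusted. Ribosomal protein genes have many processed copies, so single values are uncertain. The ribosomal median was 0.12 log2, and Rpl4 did not pass when any library other than unloading 2 was left out (adjusted p 0.0691 to 0.0868). Eef1a2, the elongation factor of adult muscle, fell from 1524, 1602 and 1351 CPM to 943, 1140.0 and 1124 CPM (log2 -0.48 ± 0.12, adjusted p = 0.0235), and did not pass without control 1, control 2 or unloading 1 (adjusted p 0.0795 to 0.122).

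Glucocorticoid-responsive genes rose in 6 of 26 cases and fell in 1, with a median of 0.30 log2. Fkbp5, a cochaperone of the glucocorticoid receptor that the receptor itself induces (ENSMUSG00000024222, chr17:28399094-28517527), had 21.1, 20.3 and 19.7 CPM in control. It reached 63.8, 71.3 and 144 CPM in unloading, highest in unloading 3, and rose by 2.19 ± 0.29 (adjusted p = 0.000501), or 4.56-fold. Sgk1, a kinase that regulates ion transport, was at 133, 128 and 132 CPM and then 225, 248 and 242 CPM (log2 0.86 ± 0.21, adjusted p = 0.0236). Pik3r1, the regulatory subunit of phosphoinositide 3-kinase, rose from 73.3, 86.0 and 85.4 CPM to 124, 123 and 173 CPM (log2 0.78 ± 0.14, adjusted p = 0.00315). Mt1, a metal-binding metallothionein, rose from 5.30, 5.12 and 3.56 CPM to 8.15, 11.3 and 10.5 CPM (log2 1.09 ± 0.23, adjusted p = 0.011). Lcn2 rose by 2.65 ± 0.46 (adjusted p = 0.00311) and Klf9, a receptor-induced transcription factor, by 0.32 ± 0.09 (adjusted p = 0.0401). Nr3c1, the glucocorticoid receptor gene, fell from 171, 176 and 182 CPM to 149, 130.0 and 136 CPM (log2 -0.35 ± 0.10, adjusted p = 0.0349). Sgk1, Klf9 and Nr3c1 passed in none of the 6 fits that each left out 1 library (adjusted p up to 0.0872, 0.15 and 0.106).

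Other members of that list divided the unloading libraries. Cebpd, a stress-induced transcription factor, had 9.01, 9.27 and 10.0 CPM in control and 37.0, 28.1 and 3.58 CPM in unloading. Ddit4, an inhibitor of mTORC1 signalling, had 13.3, 13.3 and 14.8 CPM and 44.6, 33.4 and 11 CPM. In both, unloading 1 and 2 were above all controls while unloading 3 was below them, and neither passed (adjusted p = 0.188 and 0.16). Both passed without unloading 3, at 0.0167 for Cebpd and 0.0435 for Ddit4. The list median by library was 0.41, 0.37 and 0.10 in unloading 1 to 3, relative to the control mean. Fkbp5 and Lcn2 did not share this order, being highest in unloading 3.

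Of 19 clock genes 2 rose. Rora, a nuclear receptor that drives Bmal1, rose from 157, 139 and 157 CPM to 219, 198 and 217 CPM (log2 0.48 ± 0.11, adjusted p = 0.0132) and did not pass without control 2 or unloading 1 (adjusted p 0.0604 to 0.075). Core oscillator genes did not pass, with Arntl (Bmal1) at -0.50, Per2 at 0.34, Nr1d1 at 0.12 and Dbp at 0.11. Per1, which glucocorticoids also induce, had 71.3, 77.5 and 70.3 CPM in control and 126, 123 and 75.2 CPM in unloading, and did not pass (adjusted p = 0.227). The hour of tissue collection is not given in the sources used here, so its part was not tested. None of 20 immediate early genes passed edgeR's test, where 1 had an unadjusted p under 0.05 and DESeq2 called 1.

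Promoters of a gene that rose and one that fell are shown to let the sequence be read beside the values, and Fkbp5 and Col1a2 were taken from the called genes that matched 1 entry. They are RefSeq promoters on GRCm38.p6, 250 bases before to 50 after the start, read 5′ to 3′ on the gene's strand. Fkbp5 (chr17:28486100-28486399, minus strand) and Col1a2 (chr6:4505368-4505667, plus strand) have in capitals the E-box CACGTG and the CCAAT box, the latter also as its reverse complement ATTGG.
Fkbp5: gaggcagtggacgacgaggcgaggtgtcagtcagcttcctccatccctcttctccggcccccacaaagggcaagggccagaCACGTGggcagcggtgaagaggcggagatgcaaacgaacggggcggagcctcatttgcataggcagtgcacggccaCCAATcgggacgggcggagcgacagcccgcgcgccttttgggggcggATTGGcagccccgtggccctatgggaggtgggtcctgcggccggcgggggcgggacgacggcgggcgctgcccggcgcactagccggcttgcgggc
Col1a2: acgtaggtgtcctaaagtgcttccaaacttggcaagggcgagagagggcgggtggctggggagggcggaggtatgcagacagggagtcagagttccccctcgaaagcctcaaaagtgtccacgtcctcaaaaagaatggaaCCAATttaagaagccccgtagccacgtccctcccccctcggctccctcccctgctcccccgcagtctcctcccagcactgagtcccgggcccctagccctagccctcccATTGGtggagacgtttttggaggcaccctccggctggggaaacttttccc
In the Fkbp5 window the E-box began at -169 and CCAAT boxes at -93 and -46 from the start. In the Col1a2 window CCAAT boxes began at -109 and at 1, the start itself. Neither window held AGAACA, the core motif of glucocorticoid receptor sites, on either strand. Over the 9681 tested genes with 1 promoter entry, AGAACA occurred in 12.8%, against 9.52% of 273 risen and 10.5% of 325 fallen genes. The FoxO motif TGTTTAC occurred in 2.65% of all, 4.40% of risen and 2.77% of fallen genes. CCAAT occurred in 38.6%, 38.1% and 38.2% in the same order, CACGTG in 9.82%, 10.3% and 7.08%, and TATAAA in 7.85%, 6.59% and 8.92%. TTATGTAA, of the E4BP4 and PAR bZIP clock factors, occurred in 0.568%, 0.733% and 0.0%. Both strands were searched, and no test was made of these shares.

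Contractile genes changed in both directions. Acta1, the skeletal alpha-actin, was among the most abundant transcripts, at 19270.0 CPM per kilobase in control and 11943 in unloading. Its libraries had 32863, 32209 and 23724 CPM in control and 13829, 19006 and 22199.8 CPM in unloading, and it fell by 0.69 ± 0.19 (adjusted p = 0.041). Tpm2, or beta-tropomyosin, fell from 6194, 6139 and 4963 CPM to 2189, 3745 and 3576 CPM (log2 -0.86 ± 0.16, adjusted p = 0.00404). Actn3, the alpha-actinin of fast fibres, rose from 7269, 8142 and 8424 CPM to 11928, 11244 and 10508 CPM (log2 0.50 ± 0.12, adjusted p = 0.0201). Mylk2, the skeletal myosin light chain kinase, rose from 841, 927 and 894 CPM to 1439, 1378 and 1209 CPM (log2 0.60 ± 0.12, adjusted p = 0.00709), and the Z-disc protein Myoz1 rose by 0.37 ± 0.10 (adjusted p = 0.0283). In Tpm2 and Mylk2 every unloading library was on 1 side of every control library, in each case with a call that held in all 6 fits that left out 1 library. Acta1 did not pass when any library other than control 3 or unloading 3 was left out (adjusted p 0.0776 to 0.187), nor Actn3 without control 1, control 2 or unloading 1 (adjusted p 0.0615 to 0.0952), nor Myoz1 when any library other than unloading 2 was left out (adjusted p 0.0604 to 0.11). Ckmt2, the mitochondrial creatine kinase, fell by 0.71 ± 0.17 (adjusted p = 0.018) and did not pass without control 1, control 2 or unloading 1 (adjusted p 0.0653 to 0.102). Also among the called genes highest per kilobase were mt-Tp, a mitochondrial transfer RNA (-0.92 ± 0.21), and Mylf-ps, a myosin light chain pseudogene (-0.46 ± 0.12). A level per kilobase is not a level of reads. Counting took no option for strand, so the mt-Tp value may hold reads of antisense neighbours and is uncertain. Reads of a pseudogene can belong to its parent gene, so the Mylf-ps value is uncertain as well. Both lost their call in several fits, mt-Tp without control 1, unloading 1 or unloading 2 (adjusted p 0.0542 to 0.0812) and Mylf-ps when any library other than control 3 or unloading 3 was left out (adjusted p 0.0549 to 0.15).

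Actc1, the cardiac alpha-actin that skeletal muscle expresses at a low level, was uniform in control at 907, 932 and 929 CPM. In unloading it had 88.0, 95.4 and 463 CPM, so unloading 3 stood apart from the other 2 while still below all controls. Actc1 fell by 2.10 ± 0.55 (adjusted p = 0.0298) and did not pass when any library other than unloading 3 was left out (adjusted p 0.0601 to 0.131). Of the other 20 genes of mechanical strain and sarcomere repair none passed edgeR's test, with Ankrd1 at 0.67, Xirp2 at -0.16 and Csrp3 at 0.12. Over all 21 of these genes 3 had an unadjusted p under 0.05 in edgeR, against 3630 of all 17833 tested genes. DESeq2 called 2, against 1561 of the 14175 genes it adjusted.

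Slow-fibre genes spread widely among the unloading libraries. Myh7, the slow myosin heavy chain, had 205, 336 and 252 CPM in control and 140.0, 220.1 and 451 CPM in unloading, lowest in unloading 1 and highest in unloading 3. Tnni1, slow troponin I, had 46.9, 66.3 and 45.8 CPM and 16.4, 42.6 and 91.3 CPM, and Tnnc1, slow troponin C, 69.1, 86.7 and 65.9 CPM and 37.0, 56.7 and 125 CPM, in the same order. None of these 3 passed (adjusted p = 0.974, 0.944 and 0.987). Over 16 slow-fibre genes the median relative to the control mean was -0.91, -0.24 and 0.25 in unloading 1 to 3 and -0.07, 0.23 and -0.16 in control 1 to 3. Myl3, a slow light chain, fell from 256, 308 and 237 CPM to 64.4, 104 and 177 CPM (log2 -1.22 ± 0.30, adjusted p = 0.024) and did not pass when any library other than control 3 or unloading 3 was left out (adjusted p 0.0614 to 0.112). Sln, or sarcolipin, an inhibitor of the calcium pump, rose from 1.24, 2.67 and 1.58 CPM to 4.16, 3.62 and 6.17 CPM (log2 1.35 ± 0.35, adjusted p = 0.0313) and did not pass when any library other than control 2 or unloading 2 was left out (adjusted p 0.0696 to 0.138). The fast myosin heavy chains did not pass: Myh4 had 45273, 54233 and 51121 CPM in control and 47698, 44937 and 48989 CPM in unloading, and Myh1 stood at -0.04. Myh2, of fast oxidative fibres, had 887, 3140.4 and 2189 CPM in unloading against 3053, 3468 and 2765 CPM, again lowest in unloading 1. Where in the muscle each piece was taken is not given in the sources used here, and its part was not tested.

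**Figure D3:**
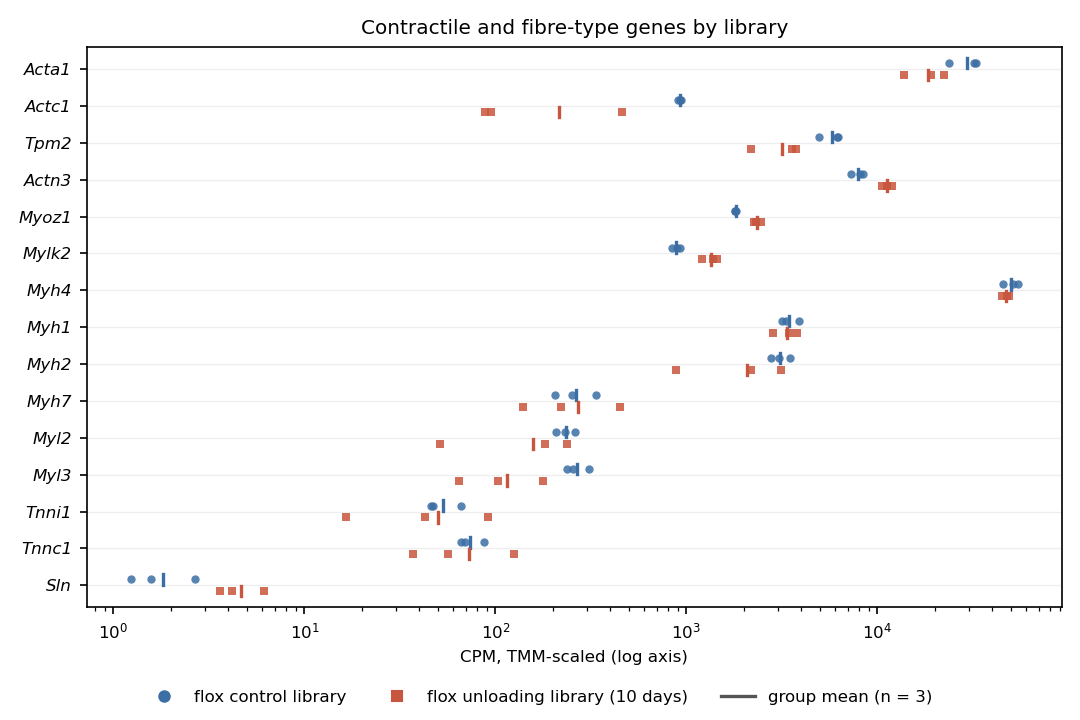
Blue circles are the 3 control libraries and red squares the 3 unloading libraries for each gene, with a bar at the group mean, on a log axis of CPM. Actn3, Myoz1 and Mylk2 lie to the right in unloading and Tpm2 and Acta1 to the left, while Myh7, Tnni1 and Tnnc1 in unloading reach both below and above the control values.

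Membrane and junction genes gave few calls. Chrnb1, the beta subunit of the acetylcholine receptor, rose from 38.2, 31.5 and 26 CPM to 67.5, 48.2 and 57.0 CPM (log2 0.85 ± 0.14, adjusted p = 0.00199), with the groups apart. It was the 1 gene called of 22 neuromuscular junction and denervation genes, and the fetal subunit Chrng at 0.31, Myog at 0.18 and Runx1 at 0.15 did not pass. Of 29 excitation-contraction and calcium handling genes 2 rose and 1 fell. Clcn1, the chloride channel that stabilises the fibre membrane, rose by 0.40 ± 0.08 (adjusted p = 0.0083), and Cacng1, a subunit of the voltage-gated calcium channel, by 0.44 ± 0.09 (adjusted p = 0.0115). Clcn1 did not pass without control 1 (adjusted p = 0.0536), nor Cacng1 without control 1 or unloading 1 (adjusted p 0.0519 to 0.0697). Rcan2, a calcineurin regulator, fell by 0.61 ± 0.16 (adjusted p = 0.0298) and did not pass when any library other than unloading 2 or unloading 3 was left out (adjusted p 0.0676 to 0.148). None of 18 myogenic and regeneration genes passed in edgeR or DESeq2, where 2 had an unadjusted p under 0.05 in edgeR, with Pax7 at 0.11, Myod1 at 0.11 and Myh3, the embryonic myosin, at 0.20.

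Of 17 heat shock and chaperone genes 4 fell (median -0.23 log2). Hspa8, the constitutive Hsc70, had 775, 738 and 737 CPM in control and 402, 505 and 578 CPM in unloading (log2 -0.60 ± 0.14, adjusted p = 0.0193). Hsph1, its nucleotide exchange factor, fell by 0.64 ± 0.14 (adjusted p = 0.0105). The mitochondrial chaperonin pair Hspd1 and Hspe1 fell by 0.36 ± 0.09 and 0.47 ± 0.10. All 4 were lower in each unloading library than in any control. Hspa8 did not pass without control 1, control 2 or unloading 1 (adjusted p 0.0583 to 0.112), nor Hsph1 without control 1 or unloading 1 (adjusted p 0.0613 to 0.0668), and the count was 0 without control 1 or unloading 1 and 1 without control 2. Hspe1 did not pass without control 1, control 2 or unloading 1 (adjusted p 0.0675 to 0.0773), nor Hspd1 when any library other than unloading 3 was left out (adjusted p 0.053 to 0.161). Of 26 unfolded protein and ATF4 response genes Sdf2l1, a factor of the endoplasmic reticulum, fell from 2.39, 2.54 and 2.30 CPM to 1.28, 1.34 and 1.06 CPM (log2 -0.97 ± 0.20, adjusted p = 0.00829), and Hspa5 (BiP) at -0.22 did not pass.

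Amino acid and polyamine metabolism held 3 risen genes of 22. Gpt2, mitochondrial alanine aminotransferase, had 204, 241 and 311 CPM in control and 584, 579 and 584 CPM in unloading. The unloading libraries were nearly equal, and Gpt2 rose by 1.21 ± 0.13 (adjusted p = 0.000121). Smox, or spermine oxidase, rose from 96.1, 111 and 153 CPM to 238, 258 and 264 CPM (log2 1.07 ± 0.16, adjusted p = 0.00118). Odc1, the rate-limiting enzyme of polyamine synthesis, rose by 0.53 ± 0.14 (adjusted p = 0.0342) but did not pass when any library other than control 1 or unloading 3 was left out (adjusted p 0.0763 to 0.144). Pnmt, which converts noradrenaline to adrenaline, rose from 0.831, 0.569 and 0.900 CPM to 3.83, 6.64 and 2.76 CPM (log2 2.52 ± 0.33, adjusted p = 0.000501). Its level stayed low, but each unloading library was above each control library. Pde4d, a cyclic AMP phosphodiesterase, was the other catecholamine-list gene called among 13, at 0.45 ± 0.12 (adjusted p = 0.0397), and did not pass when any library other than control 3 or unloading 2 was left out (adjusted p 0.0896 to 0.164).

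Of 29 cell cycle genes Ccnd1, or cyclin D1, was the 1 called. It fell from 12.7, 11.1 and 7.70 CPM to 3.19, 4.01 and 3.06 CPM (log2 -1.61 ± 0.16, adjusted p = 6.63e-05), with the groups apart. Proliferation genes did not pass, with Mki67 at -0.20, Top2a at -0.67 and Pcna at 0.02. The list median was -0.31 log2. Of the 29, 6 had an unadjusted p under 0.05 in edgeR, near the share over all genes (3630 of 17833). DESeq2 called 2, a smaller share than the 1561 of 14175 over all genes it adjusted. In mKO muscle 9 of the 29 fell, with a median of -0.79, where 7.75% of all tested genes were called in either direction. Among 19 genes of the p53 and arrest list Cdkn1a and Cdkn1b rose and Ccng1 fell. Cdkn1b, the p27 inhibitor, rose by 0.30 ± 0.08 (adjusted p = 0.0407) but did not pass when any of the 6 libraries was left out (adjusted p 0.0515 to 0.161). Ccng1, cyclin G1, fell by 0.51 ± 0.14 (adjusted p = 0.0354) and did not pass when any library other than unloading 3 was left out (adjusted p 0.0576 to 0.16).

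The largest single rises and falls, by the rule stated with the methods, included genes outside these lists. Mss51, a muscle protein located at mitochondria (ENSMUSG00000021815, chr14:20482867-20496901), had 104, 88.9 and 50.5 CPM in control and 472, 382 and 302 CPM in unloading. It rose by 2.25 ± 0.32 (adjusted p = 0.00077), with every unloading library above every control library. Odf3l2 rose from 1.73, 3.39 and 2.66 CPM to 11.7, 14.6 and 18.8 CPM (log2 2.54 ± 0.41, adjusted p = 0.00175). Tmem100, a membrane protein, rose from 5.79, 6.78 and 6.75 CPM to 20.5, 19.5 and 20.6 CPM (log2 1.65 ± 0.27, adjusted p = 0.00213), with both groups tight. Lcn2, which encodes the siderophore-binding lipocalin 2, had 0.469, 0.175 and 0.225 CPM and 1.03, 1.65 and 2.82 CPM, so its change rests on low counts. Scn3b, a sodium channel beta subunit, rose by 1.67 ± 0.27 (adjusted p = 0.00188) and Msln, or mesothelin, by 1.88 ± 0.38 (adjusted p = 0.00828). Gabrr2, a GABA receptor subunit, rose by 1.88 ± 0.39, and Gbp10, a guanylate-binding protein, by 1.74 ± 0.39. Gabrr2 did not pass without control 1 or control 2 (adjusted p 0.0532 to 0.0544), nor Gbp10 without control 1 or unloading 2 (adjusted p 0.0716 to 0.0778). Gbp10 has near-identical relatives, so its value is uncertain.

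Mycn, a Myc family transcription factor, fell from 4.39, 4.81 and 2.99 CPM to 0.576, 1.24 and 0.654 CPM (log2 -2.30 ± 0.28, adjusted p = 0.000299). Adgrb2, an adhesion G protein-coupled receptor, had the largest fall under the naming rule, from 5.67, 5.38 and 3.53 CPM to 0.329, 1.05 and 0.736 CPM (log2 -2.78 ± 0.40, adjusted p = 0.000789). Lgr6, a receptor for R-spondins, fell from 2.19, 1.14 and 1.17 CPM to 0.350, 0.393 and 0.163 CPM (log2 -2.31 ± 0.40, adjusted p = 0.00315). In all 3 the lowest control library was above the highest unloading library. Clec11a, a secreted growth factor of bone and marrow, fell by 1.77 ± 0.27 (adjusted p = 0.00129), and Papln, the matrix protein papilin, by 1.79 ± 0.30 (adjusted p = 0.00229). Hist1h1e, a linker histone, fell from 8.71, 7.76 and 8.64 CPM to 2.47, 2.90 and 1.98 CPM (log2 -1.77 ± 0.21, adjusted p = 0.000296), and Cnga3, a cyclic nucleotide-gated channel subunit, by 1.73 ± 0.32 (adjusted p = 0.00425). Replication-dependent histone transcripts mostly lack a poly(A) tail, so these libraries capture them in part. Oxtr, the oxytocin receptor, fell by 1.91 ± 0.45 but did not pass when any library other than control 3 or unloading 2 was left out (adjusted p 0.061 to 0.106). Cilp2 fell by 1.66 ± 0.39 and Greb1 by 1.69 ± 0.43. Cilp2 did not pass without control 2, unloading 2 or unloading 3 (adjusted p 0.0558 to 0.0946), nor Greb1 when any library other than control 3 or unloading 3 was left out (adjusted p 0.0655 to 0.132).

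**Figure D4:**
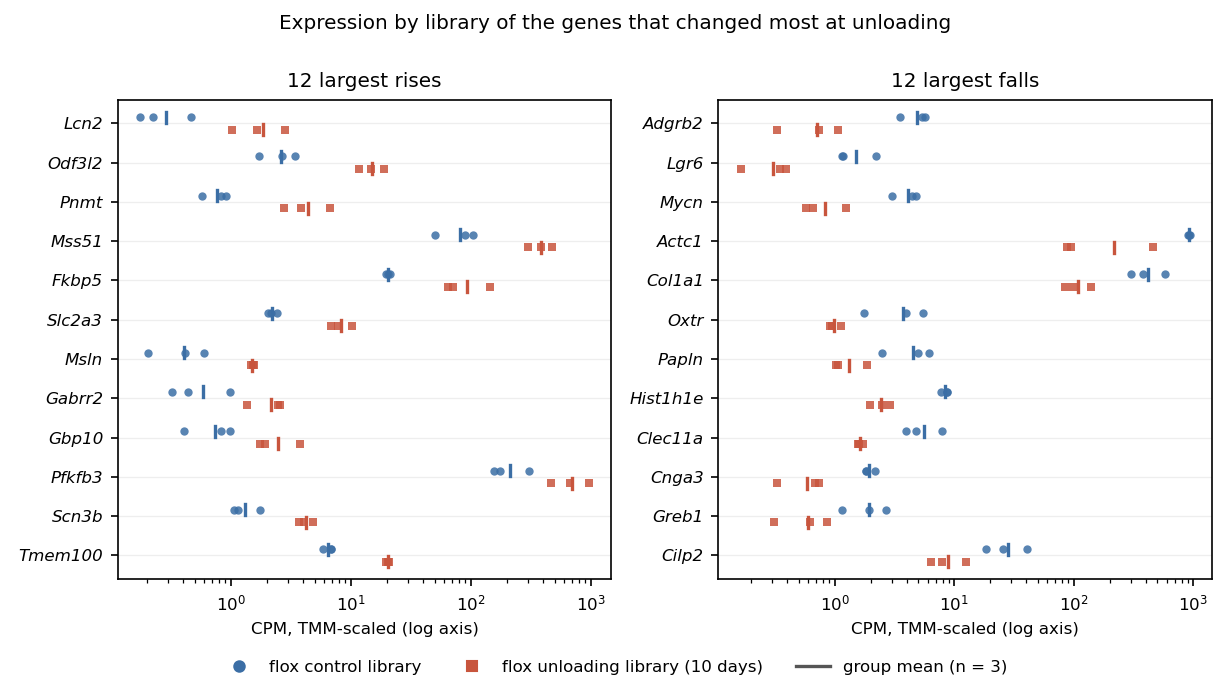
CPM of each control library (blue circles) and unloading library (red squares) on a log axis for the 12 largest rises and 12 largest falls, with a bar at each group mean. The groups do not overlap because the rule asked for that; Tmem100 and Slc2a3 are tight in both groups, and unloading 3 lies apart from unloading 1 and 2 for Actc1.

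Blood, immune and other cell markers gave few calls. None of 18 macrophage and monocyte, 15 endothelial and 12 pericyte and smooth muscle markers passed in edgeR or DESeq2, where 0, 2 and 1 had an unadjusted p under 0.05 in edgeR. Endothelial markers summed to 975, 1033 and 968 CPM in control and 926, 936 and 948 CPM in unloading. Neither lymphocyte nor adipocyte nor erythroid markers passed in edgeR or DESeq2 (7, 10 and 6 tested), where 0, 0 and 1 had an unadjusted p under 0.05 in edgeR. Of 12 satellite cell markers Itga7, the laminin-binding integrin that fibres also carry, rose from 97.3, 93.4 and 82.4 CPM to 146, 131 and 138 CPM (log2 0.60 ± 0.12, adjusted p = 0.00723), and Heyl, a Notch target, fell by 0.40 ± 0.10 (adjusted p = 0.0211) but did not pass when any library other than control 3 or unloading 1 was left out (adjusted p 0.0638 to 0.113). H2-Ab1, a class II antigen presentation gene, fell from 29.3, 23.2 and 22.6 CPM to 15.7, 13.1 and 16.6 CPM (log2 -0.73 ± 0.20, adjusted p = 0.0393) and did not pass when any of the 6 libraries was left out (adjusted p 0.0517 to 0.158). Close relatives share sequence with H2-Ab1, so its count is uncertain. H2-Ab1 was the 1 gene called by edgeR of 9 MHC class II and dendritic markers, and DESeq2 called 2. The list median was -0.49 log2, with 8 of 9 below 0. The 9 markers summed to 157, 123 and 130 CPM in control and 85.3, 76.6 and 114 CPM in unloading. Il6ra, the interleukin 6 receptor, was the 1 gene called of 25 cytokine and chemokine genes, at 0.60 ± 0.16 (adjusted p = 0.0376), and did not pass when any library other than control 3 was left out (adjusted p 0.0501 to 0.171). Ifit3b was the 1 fallen gene of 33 interferon response genes, from 4.13, 4.99 and 8.28 CPM to 2.39, 2.27 and 2.15 CPM (log2 -1.35 ± 0.26, adjusted p = 0.00641), and has a near-identical neighbour. Schwann cell markers had a median of 0.54 log2. Of 13, 8 were apart upward and 1 downward, where 13% and 12.8% of all tested genes were. An unadjusted p under 0.05 in edgeR was found for 10 of the 13, against 3630 of all 17833 tested genes. DESeq2 called 4 as risen, against 741 of the 14175 genes it adjusted. With no low-count filter edgeR called 8 as risen, against 681 of 32258. Ncmap, a myelin-associated protein, was the Schwann cell gene called by edgeR with the filter, at 0.91 ± 0.25 (adjusted p = 0.0366), and did not pass when any library other than control 1 or unloading 3 was left out (adjusted p 0.0506 to 0.173). The 13 markers summed to 414, 242 and 304 CPM and 476, 447 and 464 CPM, and the nerve content of each piece was not tested.

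Neutrophil markers were raised in 1 library. S100a9, a calcium-binding protein of neutrophils, had 0.341, 0.0875 and 0.180 CPM in control and 0.165, 0.0827 and 3.74 CPM in unloading, and S100a8 0.298, 0.0437 and 0.180 CPM and 0.165, 0.0414 and 2.72 CPM. Neither passed (adjusted p = 0.133 and 0.221). The 6 of 12 markers that passed the count filter summed to 3.32, 2.19 and 1.40 CPM in control and 2.26, 2.65 and 12 CPM in unloading, and Ly6g, Ngp, Camp, Cxcr2, Ltf and Elane were below it. Lcn2, which neutrophils also carry, was highest in that same library. Without unloading 3 Lcn2 rose by 2.20 log2 (adjusted p = 0.0173), and the part of neutrophil RNA in its rise was not tested. Fkbp5, likewise highest there, rose by 1.73, adjusted p = 0.00207 without it.

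**Figure D5:**
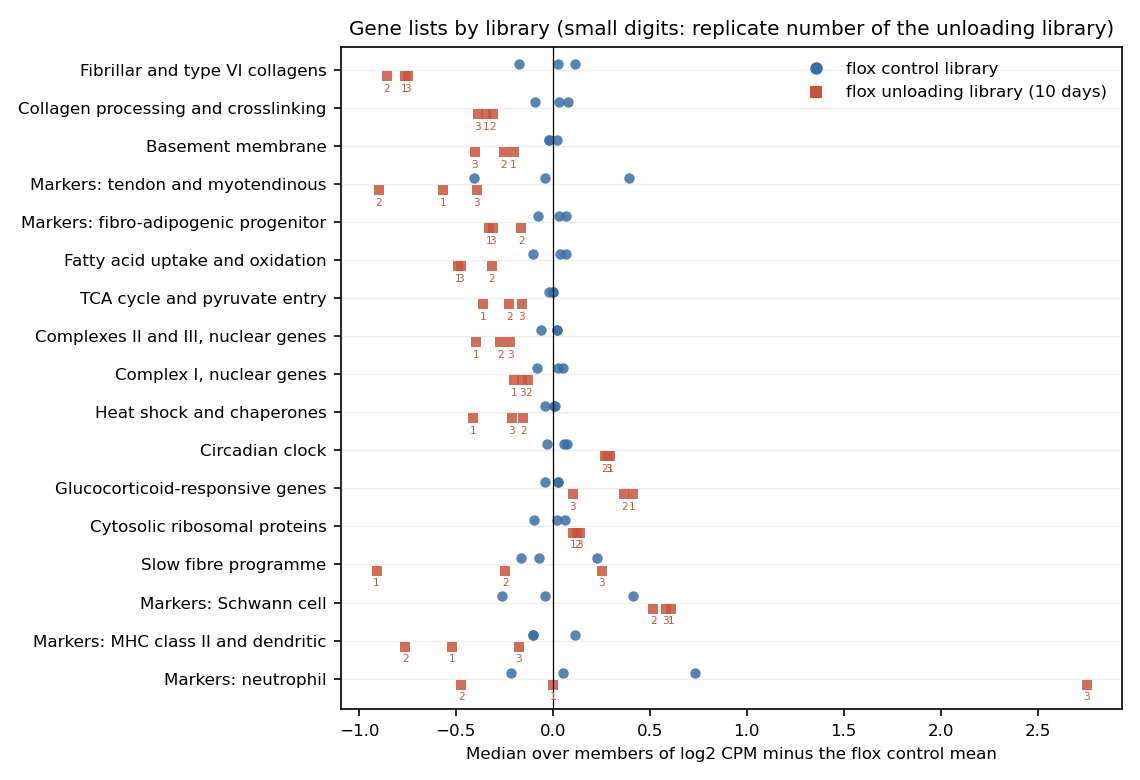
For each list the horizontal axis gives the median over members of log2 CPM minus the flox control mean, with control libraries as blue circles and unloading libraries as red squares numbered by replicate. Collagen, fatty acid oxidation and clock lists have their 3 unloading libraries close together, the slow-fibre list has them from -0.91 to 0.25, and the neutrophil list has unloading 3 at 2.75.

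The same change was measured in mKO muscle, where 1382 genes, 7.75% of those tested, were called. No gene passed edgeR's test of a difference between the genotypes (genotype by unloading interaction, smallest adjusted p = 0.99991), and DESeq2 likewise called 0. In edgeR 733 of the 17833 tested genes had an unadjusted p under 0.05, a smaller share than that threshold itself. Without the filter on low counts 122 passed. A p that misses the threshold does not show that the responses were alike. Slc2a3 changed by 1.42 ± 0.17 in mKO muscle and 1.91 ± 0.17 in flox muscle, and Fkbp5 by 2.13 ± 0.29 and 2.19 ± 0.29. Col1a1 changed by -2.24 ± 0.31 and -1.97 ± 0.31, and Ccnd1 by -1.24 ± 0.16 and -1.61 ± 0.16. The direction was the same in both genotypes for these 4 genes. Mycn changed by -0.82 ± 0.27 in mKO muscle against -2.30 ± 0.28 (edgeR interaction, unadjusted p = 0.00131 and adjusted p = 0.99991), Msln by 0.35 ± 0.36 against 1.88 ± 0.38, and Oxtr by 0.05 ± 0.47 against -1.91 ± 0.45. With the filter none of those 3 passed the interaction test, and in mKO muscle they were not called (adjusted p = 0.0726, 0.615 and 0.967). Sgk1 and Klf9 were called there too, at 0.94 ± 0.21 and 0.42 ± 0.09.

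After 3 days of reloading, flox muscle had Col1a1 at 664 ± 210.4 CPM (SD, n = 3), Fkbp5 at 17.8 ± 2.83 CPM and Slc2a3 at 1.81 ± 0.258 CPM. Mss51 was at 76.3 ± 6.58 CPM and Gpt2 at 182 ± 19 CPM. These levels are given as a description, and put the reloaded libraries above the unloaded ones for Col1a1 and below them for Mss51.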

How the data were processed

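Polyadenylated RNA of 18 gastrocnemius samples was extracted with Trizol and made into TruSeq Stranded mRNA libraries, per the labels' protocols. The authors deposited raw counts per gene. The submitters' processing notes name STAR 2.7.3a, featureCounts 2.0.3 and GRCm38.p6, while per the file headers featureCounts 1.6.4 ran with GRCm38 annotation release 94 and no option for strand, pairs or multiple mapping, so reads of antisense neighbours and near-identical copies are uncertain. The deposited comparison tables were not used.

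Genes were kept by edgeR's filterByExpr over the 6 groups, and counts were fitted in edgeR 4.0.16 (R 4.3.3, limma 3.58.1) with TMM factors and the quasi-likelihood F test, in 1 model of 6 group means over 18 libraries with 12 residual degrees of freedom. Benjamini-Hochberg adjustment ran over all 17833 genes, and the SE is the log2 fold change divided by the root of F. Depth was 45069595 to 51592566 counts per library. Alternatives were RLE and total-count scaling, no filter, 1 CPM in 3 libraries, a replicate block, the 6 libraries alone, DESeq2 1.42.0, and leaving out each library. Control and unloading libraries were grouped by title.

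The comparison, its gene lists and the genes named were chosen with earlier results of these data known. Named were Zfp697, the 12 largest called rises and falls with at least 1 CPM in a group and ranges apart (clone names left out), the 8 called genes highest per kilobase, and of each list up to 4 called members by size, or the 2 most abundant where fewer than 2 were called. Other genes named, most of them given as not passing, were chosen after their values were seen. Results on some genes are not reported here.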

Additional observations from a re-analysis of the deposited data

How the results depend on the processing

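No called change of a named gene turned its direction under the alternatives run. Against 1024 called genes, DESeq2 gave 1561 (741 rose and 820 fell) and testing with no low-count filter 1651 (681 rose and 970 fell), while the other fits with all 18 libraries gave 960 to 1149 and the fit of the 6 compared libraries alone gave 788. Leaving out 1 library gave 364 to 801 called, 175 to 348 risen and 189 to 453 fallen; without control 3 and without unloading 2 the counts were 739 and 801. Scaling by total counts gave 960 with 56.5% risen, against 46.6%, and moved the median of all genes to 0.0344. It turned the medians of the fast fibre, lysosome, endothelial and mechanical strain lists, all within 0.03 of 0, above 0. With no low-count filter 122 genes passed the interaction, 120 of them genes that the filter keeps; the cause was not tested. Of 165 genes named by the rule 118 were called, and 54 of those passed in all 6 fits that left out 1 library. In the edgeR fit of the 6 compared libraries alone 102 of the 118 passed. Among those that did not were Acta1, Actc1, Phka1 and Tnmd (adjusted p 0.0556, 0.0538, 0.0522 and 0.0546). Setting aside the fits that left out 1 library, 97 of the 118 passed under every alternative.

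Same-numbered control and unloading libraries correlated at -0.0283, 0.0815 and 0.0468 in their deviations from group means. Differently numbered ones ran from -0.0835 to 0.0322. Deviations from a mean of 3 libraries sum to 0, so these values cannot decide whether the numbers pair libraries. The labels do not say that they do, and the main fit left them unpaired. With the replicate number as a block 1124 genes were called (517 rose, 607 fell), 978 shared with the unblocked fit, and 116 of the 118 named genes passed.

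With 3 libraries a group, an exact permutation test of 1 gene cannot go below p = 0.1. Genes near 1 CPM rest on few reads.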

Other observations

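Other genes with tight groups were picked after their values were seen, so they describe these libraries and stand for no list. Rbm3, a cold-inducible RNA-binding protein, rose from 39.7, 44.1 and 40.6 CPM to 95.7, 82.2 and 93.0 CPM (log2 1.12 ± 0.13, adjusted p = 0.000214), and its relative Cirbp rose by 0.64 ± 0.16 (adjusted p = 0.0266) but did not pass when any library other than unloading 3 was left out (adjusted p 0.0561 to 0.129). Art3, an ADP-ribosyltransferase family member, had the smallest adjusted p together with Slc2a3, rising from 107, 118 and 124 CPM to 254, 221 and 262 CPM (log2 1.08 ± 0.10, adjusted p = 1.75e-05). Sntb1, a syntrophin that anchors proteins to dystrophin, rose from 18.3, 16.1 and 16.5 CPM to 38.0, 35.1 and 38.7 CPM (log2 1.14 ± 0.15, adjusted p = 0.000446). Sox6, a transcription factor that represses slow-fibre genes, rose from 174, 156 and 188 CPM to 255, 241 and 266 CPM (log2 0.56 ± 0.08, adjusted p = 0.000646).

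Gamt, which makes creatine, fell from 14.2, 11.4 and 13.6 CPM to 4.36, 5.46 and 3.11 CPM (log2 -1.6 ± 0.23, adjusted p = 0.000796). Oxct1, the enzyme that commits ketone bodies to oxidation, fell by 0.91 ± 0.18 (adjusted p = 0.0083), and did not pass without unloading 1 (adjusted p = 0.0544). Aplnr, the apelin receptor of vessels, fell from 19, 15.6 and 15.7 CPM to 6.55, 7.53 and 9.21 CPM (log2 -1.11 ± 0.16, adjusted p = 0.00077), and its ligand Apln by 0.94 ± 0.24 (adjusted p = 0.0264), which did not pass when any library other than control 3 was left out (adjusted p 0.0572 to 0.0944). Dio2, which activates thyroid hormone, fell from 4.17, 4.07 and 4.07 CPM to 1.87, 1.72 and 2.06 CPM (log2 -1.12 ± 0.18, adjusted p = 0.00154). Nkain1 was even within groups, at 17, 16.9 and 17 CPM and 8.03, 8.17 and 7.95 CPM (log2 -1.08 ± 0.12, adjusted p = 0.000172). A second histone transcript, Hist1h2be, fell as Hist1h1e did, by 1.6 ± 0.19 (adjusted p = 0.000299).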
